A study of Oryza sativa with 10 samples.

Results

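IAA26, IAA31 and ARF2 are genes of the auxin response in rice, and their transcripts were followed here across 5 tissues. They were found by symbol or synonym in the gene annotation, which gave 4 genes read by 7 probe sets, of 17905 genes and 57381 probe sets on the array. The name ARF2 belongs to 2 loci: LOC4325895, also named OsETTIN2, and LOC4326957, also named ARF4. Both were kept, and they are called OsETTIN2 and ARF4 below. IAA26 is LOC4347643 and has 1 probe set, and IAA31 is LOC4352722 and has 2, as have OsETTIN2 and ARF4. The genes had been chosen by their signals in embryo and endosperm, where IAA26, IAA31 and OsETTIN2 were far higher in embryo, so their levels in the seed are given as a description with no test. For these 4 genes, tests were made only between seedling, leaf and root.

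The material was the japonica rice cultivar Zhonghua 11, grown in a phytotron. Embryo and endosperm were dissected from seeds 6 days after anthesis, whole seedlings were 10 days old, and leaf and root came from 7-day-old seedlings. Each tissue had 2 biological replicates with 1 oligonucleotide array each, and these 10 arrays limit the precision. The seedlings were 3 days older than the seedlings that gave leaf and root, so age and organ cannot be told apart in those comparisons.

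Auxin acts by removing repressors. Aux/IAA proteins bind auxin response factors (ARFs), transcription factors that sit on auxin-responsive promoters, and hold those genes in check. Auxin brings Aux/IAA proteins to F-box receptors of the TIR1 and AFB type, the repressors are degraded, and the ARFs are freed. Many Aux/IAA genes are themselves switched on by auxin, and both families act in laying out the embryo axis and in root and leaf growth.

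The labelled tissues showed the transcripts listed for them. All 4 embryo markers, all 5 endosperm markers and all 4 root markers were highest in the tissue they were listed for. Their signals there were at least 1450, 25600 and 4080. The root list held Lsi1, Lsi2, Nrat1 and the amylase gene AMY1.1 (15000 and 10000 in root), which does not by itself define root. The source of the AMY1.1 signal was not tested. The endosperm markers also read 1495 to 12620 on the embryo arrays, against 25630 to 50500 in endosperm. Among the embryo markers MFT2 read 1063 and 6.61, RAB16C 2134 and 808, OSH1 466 and 255, and VP1 17.6 and 44.8 on root 1 and root 2, and their part in the root values was not tested. Of 4 leaf markers, 2 were highest in leaf and 2 in the whole seedling, which contains leaf. The summed signal of the 4 leaf markers, which also mark green tissue, was 1877 and 1531 on the embryo arrays, 3782 and 25968 in endosperm, 49683 and 61680 in seedling, 70705 and 61356 in leaf, and 18848 and 6278 in root. CAB2R made up most of that sum on endosperm 2 and root 1, at 3029 and 24310 in endosperm and 15520 and 3977 in root. The other leaf markers read 106 to 454 on endosperm 1 and 500 to 593 on endosperm 2. In root GLN2 and LFNR1 were also higher on root 1, and OsrcaA1 on root 2 (1276 and 1487). The summed signal was thus uneven in endosperm and in root mainly through CAB2R, the brightest of the 4 markers there. GLN2 differed as well, at 106 and 500 in endosperm and 1344 and 565 in root, as did LFNR1 in root (712 and 250). Between the replicates of endosperm and of root 26.2% and 25.0% of tested probe sets lay at least 2-fold apart, against 3.39% to 7.32% in the other tissues. The Gapdh 3′ to 5′ signal ratio, a measure of RNA quality, was 1.82 and 1.65 on the embryo arrays, 4.71 and 5.28 in endosperm, 11.3 and 9.45 in seedling, 26.3 and 29.1 in leaf, and 2.04 and 24.0 in root, so it moved with tissue. A probe set counted as called when limma's adjusted p was under 0.05 and the difference at least 2-fold. Log2 differences are on the scale of log2(signal + 16), which understates changes of dim probe sets.

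IAA26, an Aux/IAA repressor gene, had its highest signal in embryo and the next highest in root. Its signal was 652 and 662 on the embryo arrays, 5.54 and 6.30 in endosperm, 40.1 and 35.0 in seedling, 3.94 and 29.1 in leaf, and 131 and 177 in root. The arrays of embryo, root and seedling did not overlap with those of the next tissue down, whereas leaf and endosperm overlapped at the bottom of the range. It reached a signal of 100 on 4 arrays only, those of embryo and root, so it entered the tests through the tissues in which it was high, the embryo arrays alone being enough for the filter. Embryo had 4.27 times the mean of root, and stood 4.94 above endosperm on the log2 scale, both as descriptions. The files used here give no detection calls, so the lowest values are near-zero readings with no bound on the true level.

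Among the seedling organs, IAA26 fell in leaf relative to root. Leaf averaged 16.5 ± 17.8 and root 154 ± 32.6 (SD, n = 2 each), a log2 difference of -2.49 ± 0.46 (SE, adjusted p = 0.00416 in limma). Since leaf was near zero, the size of this difference was set by the pseudocount, from -3.65 with 1 to -1.44 with 64, both called (limma adjusted p = 0.0140 and 0.00291). Without leaf 1, on which it read 3.94, the difference was -1.90 and the call ended (limma adjusted p = 0.0557). Whole seedling was also lower than root, at 37.5 ± 3.65 against 154 ± 32.6, a difference of -1.65 ± 0.46 (limma adjusted p = 0.0302). That call ended when any 1 of the embryo, seedling or root arrays was left out, with differences from -1.85 to -1.46 in the same direction, and also with a pseudocount of 1 (-1.99, limma adjusted p = 0.125; with 64 it was called at -1.09, 0.0135), with spike-in scaling (-1.75, 0.0514) and with no filter on low signal (-1.65, 0.0778). Seedling minus leaf was 0.83 ± 0.46 (1.66 with a pseudocount of 1, 0.35 with 64), which did not pass (limma adjusted p = 0.472, 95% interval from -0.20 to 1.86).

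IAA31, another Aux/IAA repressor gene, had high signals in root and embryo and its lowest in endosperm. Its bright probe set read 2815 and 5269 on the embryo arrays, 60.9 and 59.9 in endosperm, 1708 and 1318 in seedling, 1095 and 1420 in leaf, and 5215 and 4754 in root. Root and embryo overlapped, as did seedling and leaf, while endosperm lay far below every other array. The order of root and embryo is therefore not settled by these data. The mean in endosperm was 60.4 ± 0.714, against 1257 ± 230 in leaf, the next tissue up (SD, n = 2 each). This is where IAA31 parted from IAA26: IAA26 was 4.27 times as high in embryo as in root, whereas IAA31 had a ratio of 0.811 between the same tissues.

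In the tested comparisons IAA31 was lower in leaf and in whole seedling than in root. Leaf had 1257 ± 230 and root 4984 ± 326, a log2 difference of -1.98 ± 0.33 (limma adjusted p = 0.00228). Seedling had 1513 ± 276 against 4984 ± 326 in root, a difference of -1.72 ± 0.33 (limma adjusted p = 0.00568). The seedling call ended without seedling 2 (-1.53, limma adjusted p = 0.0709), and the leaf call held with each array left out. Seedling minus leaf was 0.26 ± 0.33 and did not pass (limma adjusted p = 0.807).

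The second IAA31 probe set showed none of this. It read from 1.40 on root 1 to 10.7 on endosperm 2 and stayed under 100 on all 10 arrays, so it was not tested. Its highest tissue mean, 8.38 ± 3.27, was in endosperm, where the other probe set was lowest. Every statement on IAA31 therefore rests on the bright probe set alone.

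**Figure D1:**
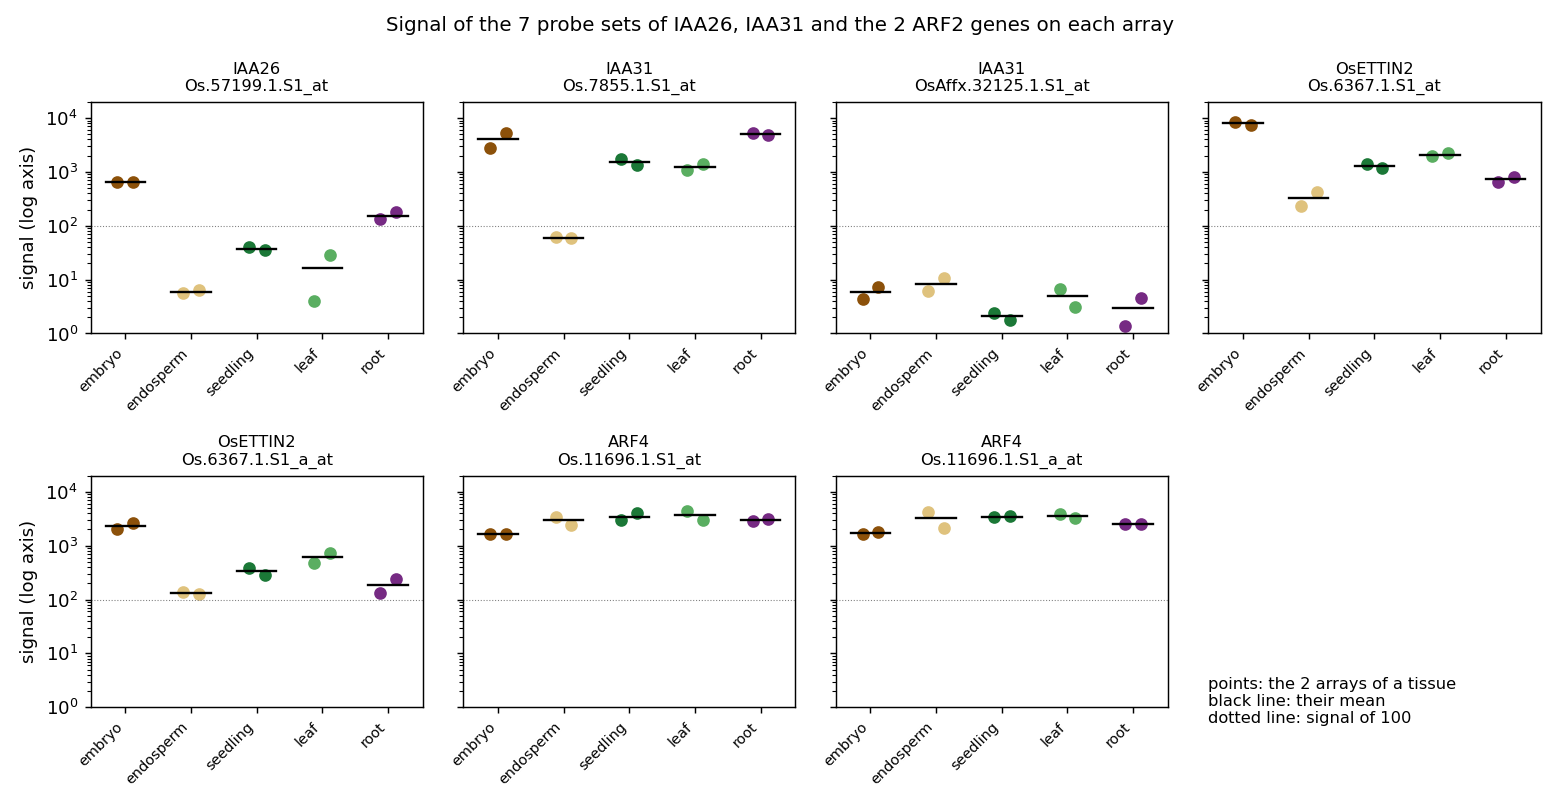
Signal (log axis) of the 7 probe sets in embryo, endosperm, seedling, leaf and root, with a point for each array and a line for the mean of the 2 arrays. IAA26 and OsETTIN2 peak in embryo and IAA31 in root and embryo, ARF4 stays between 1632 and 4383, and the second IAA31 probe set stays at or under 10.7.

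OsETTIN2, 1 of the 2 genes named ARF2, encodes an auxin response factor and shares its name with Arabidopsis ETTIN, an ARF known for patterning the flower's gynoecium. Its brighter probe set read 8408 and 7449 on the embryo arrays, 236 and 418 in endosperm, 1416 and 1203 in seedling, 1988 and 2214 in leaf, and 657 and 793 in root. No tissue overlapped with its neighbour in the order embryo, leaf, seedling, root and endosperm. Its dimmer probe set gave the same order at lower signals: 2051 and 2629 on the embryo arrays, 135 and 124 in endosperm, 388 and 287 in seedling, 471 and 745 in leaf, and 131 and 243 in root. On it root and endosperm overlapped. Over the 10 arrays the signals of the 2 probe sets correlated at r = 0.967, a description of sets that share a gene and the same libraries.

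Leaf was above root for OsETTIN2, the reverse of both Aux/IAA genes. With the brighter probe set leaf had 2101 ± 160 and root 725 ± 95.8 (SD, n = 2 each), a log2 difference of 1.52 ± 0.30 (limma adjusted p = 0.00571). With the dimmer one the difference was 1.64 ± 0.38 (limma adjusted p = 0.0130). Without leaf 2 neither probe set was called (1.44 and 1.32, limma adjusted p = 0.0612 and 0.142), and without root 1 the dimmer one was not (1.23, limma adjusted p = 0.0567). With that Gapdh ratio in the model, the brighter one was called (1.34, limma adjusted p = 0.0319) and the dimmer one not (1.17, limma adjusted p = 0.0777), nor was the dimmer one in a model of leaf and root alone (1.64, 0.0641). The Gapdh model also holds a mean per tissue, so its adjustment came mostly from root 1 against root 2 (ratios of 2.04 and 24.0). It therefore cannot decide the part of RNA quality between leaf and root.

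Whole seedling lay between leaf and root for OsETTIN2. Seedling minus root was 0.84 ± 0.30 and 0.84 ± 0.38 with the brighter and dimmer probe set and did not pass (limma adjusted p = 0.0751 and 0.152). The dimmer one passed without root 2 (1.25, limma adjusted p = 0.0460). Seedling minus leaf was -0.68 ± 0.30 and -0.80 ± 0.38, which did not pass either (limma adjusted p = 0.341 and 0.388). The seedling means of IAA26 and IAA31 also lay between those of leaf and root.

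ARF4, the other gene named ARF2, had a different and far flatter profile. The probe set with the _at suffix read 1652 and 1655 on the embryo arrays, 3473 and 2391 in endosperm, 2944 and 3969 in seedling, 4383 and 3057 in leaf, and 2813 and 3118 in root. The one with the _a_at suffix read 1632 and 1787 on the embryo arrays, 4282 and 2117 in endosperm, 3460 and 3487 in seedling, 3898 and 3298 in leaf, and 2479 and 2494 in root. Embryo was the lowest tissue with both, and its arrays did not overlap with those of any other tissue. Apart from embryo, every neighbouring pair in the order overlapped. The 2 probe sets correlated at r = 0.905 over the 10 arrays.

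None of the tested differences of ARF4 passed. Leaf minus root was 0.30 ± 0.28 and 0.53 ± 0.31 with the _at and the _a_at probe set, with 95% intervals from -0.32 to 0.92 and from -0.16 to 1.21. Seedling minus leaf was -0.10 ± 0.28 and -0.05 ± 0.31, and seedling minus root 0.21 ± 0.28 and 0.48 ± 0.31. Limma's adjusted p for these 6 differences was between 0.264 and 0.975. In the seed the 2 genes named ARF2 went opposite ways: embryo minus endosperm was 4.58 for OsETTIN2 and -0.80 for ARF4 with their _at probe sets, which for OsETTIN2 is the brighter one. The sign for ARF4 depended on the scaling, since with arrays scaled to the added spike-in transcripts it was 0.23, and that of OsETTIN2 was then 5.56. The name ARF2 alone thus does not say which profile is meant.

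Over the tested comparisons, 3 of the 4 genes were called between leaf and root (IAA26 and IAA31 lower in leaf, OsETTIN2 higher), where 19.8% of all tested probe sets were called, 10.9% higher and 8.87% lower. IAA26 is among them with a leaf signal under the filter, so its call gives a direction and no firm size. Between seedling and root 2 of the 4 were called, both lower in seedling, against 19.0% of all tested probe sets, 11.1% higher and 7.90% lower. Between seedling and leaf 0 of 4 were called by limma, with 1 of 6 probe sets at an unadjusted p under 0.05, and 2.71% of all tested probe sets were called there, 1.97% higher and 0.736% lower. In limma's F-test across seedling, leaf and root, which called 23.9% of tested probe sets, IAA31 (adjusted p = 0.00340), IAA26 (0.00865) and both OsETTIN2 probe sets (0.0128 and 0.0290) passed, and both ARF4 probe sets did not (0.373 and 0.695). The comparisons share arrays and are not independent of each other. The leaf markers and the Gapdh ratio differed between tissues and between root 1 and root 2 as given above. Their part in these results was not tested beyond the values without each array and with the Gapdh ratio in the model.

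**Figure D2:**
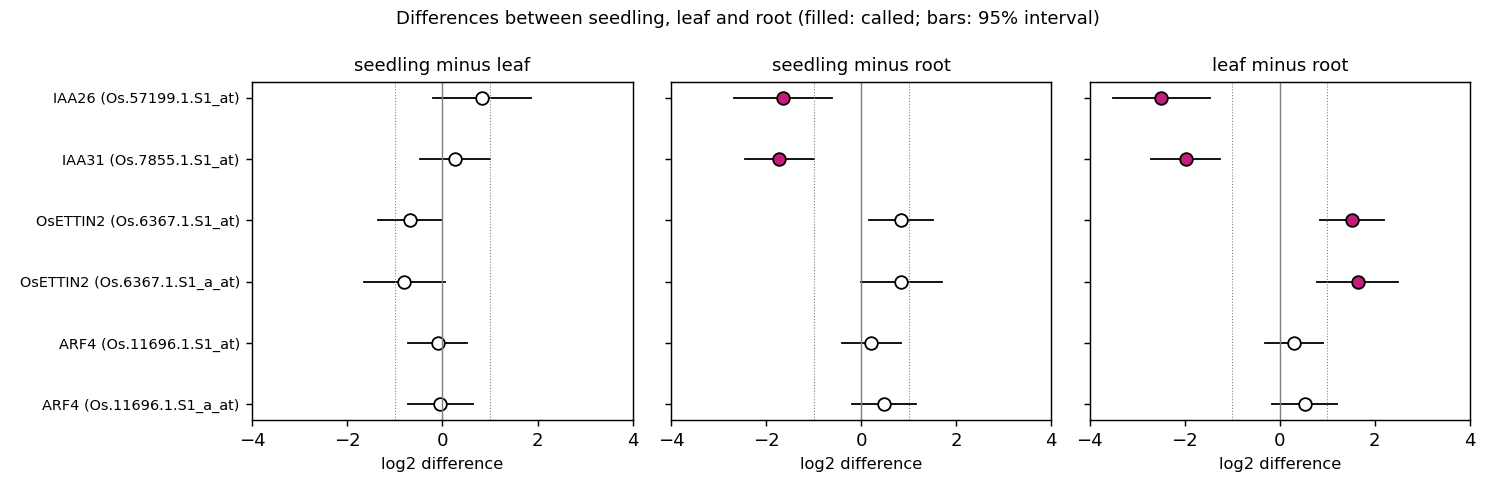
Log2 differences of the 6 tested probe sets for seedling minus leaf, seedling minus root and leaf minus root. Points are limma estimates, bars 95% intervals, filled points are called, and dotted lines mark a 2-fold difference. IAA26 (-2.49) and IAA31 (-1.98) lie left of zero and OsETTIN2 (1.52 and 1.64) right of it for leaf minus root.

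The array samples are pieces of tissue, so fewer cells that hold a transcript and less transcript per cell cannot be told apart in any of these values.

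IAA31 has a family member as its neighbour: in the gene table IAA30 (LOC4352721) is the gene next to it. IAA30 was lowest in endosperm too: it read 7820 and 7844 in embryo against 200 and 581 in endosperm, 7161 and 5931 in seedling, 6468 and 7282 in leaf, and 6067 and 8997 in root. Its arrays in the tissues other than endosperm lay in 1 band, and leaf minus root was -0.11 ± 0.40 (limma adjusted p = 0.885). The difference between IAA31 and IAA30 in leaf minus root was not itself tested.

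OsETTIN2 likewise has a namesake, ARF15, also named OsETTIN1 (LOC9268260). ARF15 read 4124 and 4337 on the embryo arrays, 91.1 and 261 in endosperm, 1997 and 2315 in seedling, 3672 and 3747 in leaf, and 1237 and 2086 in root. Its tissue means had the same order as those of OsETTIN2, from embryo through leaf, seedling and root to endosperm. The seedling and root arrays of ARF15 overlapped, and seedling minus root was 0.42 ± 0.41 (limma adjusted p = 0.528), so that part of its order is not settled. Leaf minus root was 1.20 ± 0.41 and did not pass (limma adjusted p = 0.0658). These comparison genes were chosen for their place and their name, after the values were at hand.

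**Figure D3:**
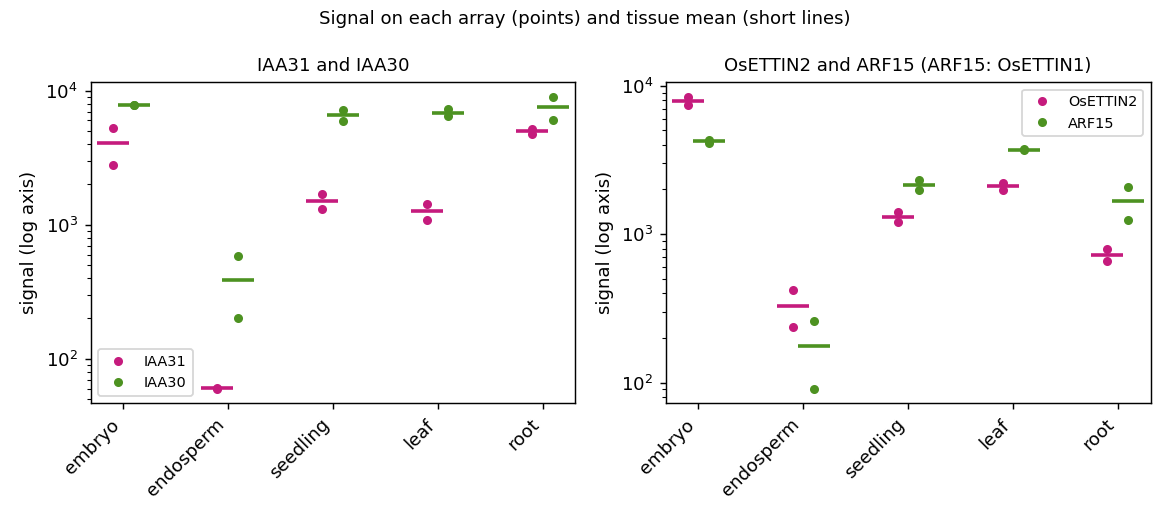
Signal on each array (points, log axis) and tissue mean (short lines) of IAA31 with its neighbour IAA30, and of OsETTIN2 with ARF15. IAA31 averages 1257 in leaf and 4984 in root, while IAA30 averages 6875 in leaf and 7532 in root. OsETTIN2 and ARF15 share the order of their tissue means, though seedling and root of ARF15 overlap.

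Most Aux/IAA genes had their lowest mean in endosperm. Of 28 genes with an IAA number, 26 had a probe set and 25 were tested, and 18 of these 25 (72.0%) had their lowest mean of log2(signal + 16) in endosperm, against 31.0% of all tested probe sets. IAA8 is among the 18 only on this scale, since its mean signal was 26.7 in embryo and 30.5 in endosperm. Without IAA26 and IAA31 it was 16 of 23 (69.6%). With arrays scaled to the spike-ins it was 20 of 25 (80.0%), but then 59.4% of all tested probe sets were lowest in endosperm. For the auxin response factors 10 of 17 (58.8%) were lowest in endosperm (47.1% with quantile normalization, 76.5% with spike-in scaling), and 9 of 15 without OsETTIN2 and ARF4. The highest tissue varied: 9 of the 25 Aux/IAA genes (36%) peaked in root, 5 (20%) in embryo, 5 (20%) in leaf, 4 (16%) in seedling and 2 (8%) in endosperm. Over all tested probe sets the shares were 17.4%, 21.3%, 17.4%, 16.9% and 27% in the same order of tissues. These shares describe lists of related genes and carry no test.

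Between embryo and endosperm, the comparison that chose the genes, 12 Aux/IAA genes were called higher and 2 lower of the 23 tested besides IAA26 and IAA31, where 36.3% of all tested probe sets were called, 20.1% higher and 16.3% lower. With spike-in scaling 15 of the 23 were higher and 0 lower, where 11058 of all 30016 tested probe sets were higher and 1180 lower. IAA9 was among the higher ones, with 2418 ± 198 in embryo and 68.2 ± 10.1 in endosperm (4.86 on the log2 scale). The lower ones were IAA23 (-2.09) and IAA25 (-1.07). Of the 15 auxin response factors besides OsETTIN2 and ARF4, 7 were higher and 2 lower, but 10 and 0 with spike-in scaling and 9 and 0 with median scaling. With median scaling 7289 of all tested probe sets were higher and 3159 lower, so the whole array moved the same way with both scalings. ARF15 (4.62) and ARF9 (3.17) were among the higher ones, and ARF13 (-1.83) and ARF1 (LOC4327785, -1.08) were the lower ones. ARF13 reached the filter signal of 100 only on the endosperm arrays (108 and 257). It was thus tested only because endosperm was high, and its lower call in embryo cannot be read as a test.

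Between leaf and root the Aux/IAA genes moved in both directions. Of 25, 4 were higher in leaf and 6 lower (40.0% called, against 19.8% of all tested probe sets), and their median log2 difference was -0.20, against -0.05 over all tested probe sets. Without IAA26 and IAA31, 4 of 23 were higher and 4 lower, with a median of -0.11. IAA14 led the rises, with 634 ± 181 in leaf and 8.54 ± 2.30 in root (4.70 ± 0.36, limma adjusted p = 5.11e-05). IAA8 (2.33 ± 0.63) and IAA24 (1.51 ± 0.30) followed. IAA8 reached the filter signal of 100 only on leaf 1, leaf 2 and seedling 2 (237, 258 and 112). It was thus tested because leaf was high, and its rise over root cannot be read as a test. IAA20 led the falls, with 48.8 ± 18.1 in leaf and 1026 ± 264 in root (-4.01 ± 0.51, limma adjusted p = 0.000561), followed by IAA12 (-2.57 ± 0.37) and IAA26. Without leaf 2 fewer genes of the family were called, and fewer probe sets of the whole array too.

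Seedling against root gave similar numbers: 3 Aux/IAA genes rose and 6 fell (36.0%, against 19.0% of all tested probe sets, with a median of -0.20, against 0.01). Without IAA26 and IAA31, 3 of 23 rose and 4 fell, with a median of -0.18. IAA14 (5.08 ± 0.36), IAA10 (1.48 ± 0.28) and IAA24 (1.44 ± 0.30) led the rises, and IAA12 (-3.13 ± 0.37), IAA23 (-1.82 ± 0.31) and IAA31 the falls. Without seedling 2 fewer of them were called, and again fewer probe sets of the whole array. Between seedling and leaf, IAA20 was the 1 Aux/IAA gene called (2.51 ± 0.51, limma adjusted p = 0.0286), with 388 ± 251 in seedling and 48.8 ± 18.1 in leaf. That call ended without embryo 1, embryo 2, seedling 1, leaf 1 or leaf 2.

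For the auxin response factors the share of calls was near that of the whole array. Between leaf and root 23.5% were called, against 19.8% of all tested probe sets: 3 of 17 rose, ARF12 (1.71 ± 0.48), OsETTIN2 and ARF24 (1.32 ± 0.23), and 1 fell, ARF1 (LOC4327785, -1.68 ± 0.37), with a median of 0.45, against -0.05 over all tested probe sets. Fewer were called without leaf 2 and more without root 2, as over the whole array. All of the 17 but ARF13 read lower on root 1 than on root 2. On root 1 and root 2 ARF12 read 716 and 2423, ARF24 830 and 1166, and ARF1 1940 and 3994. The part of this unevenness in the median and in the calls was not tested. Between seedling and root 23.5% were called, against 19.0% of all tested probe sets: ARF24 (1.79 ± 0.23) and ARF12 (1.78 ± 0.48) rose, and ARF1 (-2.54 ± 0.37) and ARF10 (-1.58 ± 0.35) fell. Between seedling and leaf 0 of 17 were called by limma, against 2.71% of all tested probe sets, with 3 at an unadjusted p under 0.05.

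**Figure D4:**
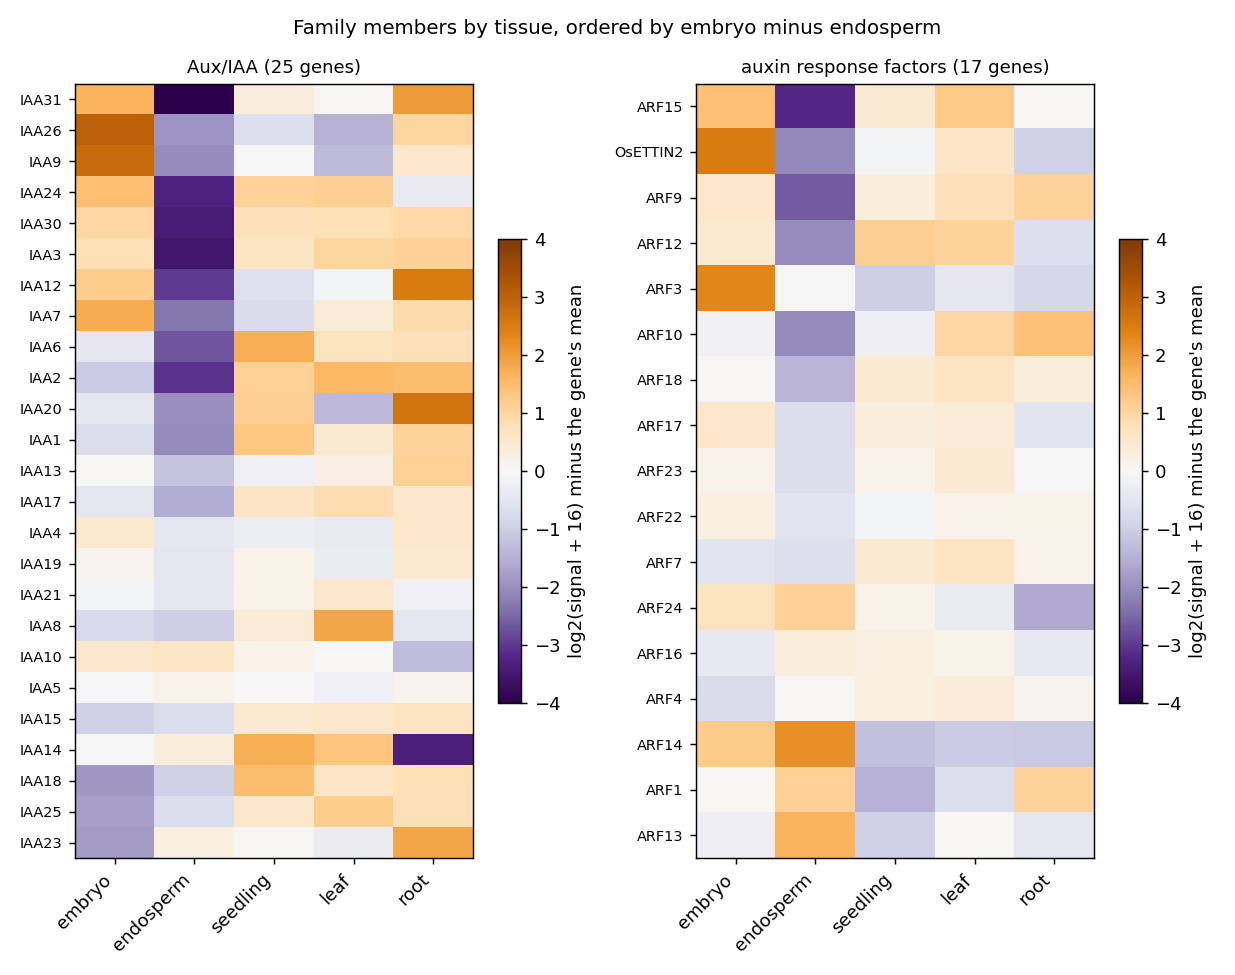
Tissue means of log2(signal + 16) of 25 Aux/IAA genes and 17 auxin response factors, minus the mean of each gene over the 5 tissues (colour scale from -4 to 4), ordered by embryo minus endosperm. The endosperm column is the lowest for 18 Aux/IAA genes and 10 auxin response factors, and ARF4 stands near the bottom of its panel.

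Genes that make, move and store auxin were few in the annotation used. Of 5 tested PIN genes, which encode auxin efflux carriers and their relatives, 0 rose and 2 fell between leaf and root, where 10.9% of all tested probe sets rose and 8.87% fell: OsPIN2 (34.7 ± 3.21 in leaf, 731 ± 325 in root, -3.81 ± 0.43) and OsPIN5 (-2.23 ± 0.48). Both also fell in seedling against root (-4.25 ± 0.43 and -1.74 ± 0.48), where OsPIN4 rose (1.95 ± 0.61) and 19.0% of all tested probe sets were called. OsPIN4 rose in seedling against leaf as well (2.80 ± 0.61), a comparison with 2.71% called. OsPIN5 reached the filter signal of 100 only on the root arrays (123 and 269). It was thus tested only because root was high, and its falls against root cannot be read as a test. OsPIN4 reached 100 only on the seedling arrays (220 and 185) and on endosperm 2 (227). It entered through seedling, so the same limit holds for its rises in seedling. Lists this short show only what the named genes did. Of 8 tested GH3 and SAUR genes, GH3 enzymes joining auxin to amino acids, 3 fell in leaf against root, where 8.87% of all tested probe sets fell: GH3.2 (-4.58 ± 0.69), GH3-8 (-3.17 ± 0.47) and GH3.6 (-1.97 ± 0.31). Between seedling and root GH3-8 fell (-1.66 ± 0.47), and between seedling and leaf GH3.2 rose (3.96 ± 0.69). The auxin synthesis genes FIB and OsYUCCA1 had 0 calls by limma between seedling, leaf and root and 0 at an unadjusted p under 0.05; OsYUCCA1 read 264 ± 3.71 in embryo, its highest tissue, and FIB 1094 ± 66.6 in embryo and 1283 ± 428 in root, its highest tissue.

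Among 2321 other genes with a readable name, the 5 most like each gene were found by Pearson's r of log2 signal over the 10 arrays, which share their libraries, so r is a description. OsETTIN2 was closest to OsPHAN (r = 0.992), a MYB gene related to PHANTASTICA of snapdragon, with means of 9684 in embryo, 354 in endosperm, 1675 in seedling, 2841 in leaf and 990 in root. OsRBR1, a retinoblastoma-related gene, HPT1, OsRac2 and the formin gene FH15 followed (0.972 to 0.967). IAA26 was closest to CML14, a calmodulin-like gene (r = 0.981; 9765 in embryo, 262 in endosperm, 934 in seedling, 475 in leaf and 3122 in root), followed by OsVDAC6, HAP3, HMG3 and the growth-regulating factor gene GRF6 (0.971 to 0.955). IAA31 was closest to ADC2, an arginine decarboxylase gene (r = 0.978; 354 in embryo, 42.3 in endosperm, 199 in seedling, 217 in leaf and 415 in root), followed by CML30, DRR1, OSE727A and LOGL1 (0.975 to 0.960). ARF4 was closest to CIGR2, a GRAS-family gene (r = 0.937), then OsC3H27, ORR1, RMSOD1 and Lip-syn (0.924 to 0.907). No Aux/IAA gene and no auxin response factor was among these 20. With r over the 5 tissue means instead, 3 of the 5 were shared for OsETTIN2, 2 for IAA31, 2 for ARF4 and 1 for IAA26.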

How the data were processed

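Transcripts were measured on 10 Affymetrix rice genome arrays, 2 per tissue, hybridized with biotin-labelled samples prepared from total RNA. The values are signal intensities on a linear scale, 1 per probe set and array, made by the authors with MAS5 per the submitters' processing notes (version not given in the sources used here). The deposited arrays already shared a 2% to 98% trimmed mean near 500. Each was rescaled to 500, 16 was added and log2 taken. Probe sets with a signal of at least 100 on at least 2 arrays were tested (30016, without 123 controls). One limma model (limma 3.58.1, R 4.3.3) with a mean per tissue and an intensity trend gave all differences, with Benjamini-Hochberg adjustment over all tested probe sets. The genes and lists were chosen with earlier results of these data known.

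Probe sets were named through the platform annotation and the rice gene table of assembly ASM3414082v1, from which only names and neighbours were taken: 22436 probe sets had 1 gene, 95 several and 34850 none. Lists were made by symbol or synonym, with the probe set of the highest mean for each gene. No gene matched TIR1 or AFB, and rice LAX1 and LAX2 were left out of the transport list, because those symbols stand for LAX PANICLE genes. Named genes were the 3 largest called rises and falls of each list and the 5 nearest genes by correlation. Deviations of the replicates correlated from -0.108 to 0.0962 between tissues, which cannot show whether samples were paired. The main model held no pairing. On simulated arrays 28% of 50 probe sets with a log2 difference of 2 and 86% of those with 4 were called, with 5 false calls among 29816, for leaf minus root. These 29816 of the 30016 probe sets were simulated without any difference, whereas 19.8% were called in the data. The adjustment depends on how many probe sets change, so the simulated shares do not give the recovery in the data. Alternatives were another pseudocount, scaling, filter, variance model, covariate, sample set or replicate block, and leaving out each array. No probe or gene sequences were used here.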

Additional observations from a re-analysis of the deposited data

How the results depend on the processing

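IAA26 in seedling minus root lost its call with a pseudocount of 1 (-1.99), spike-in scaling (-1.75) and no filter (-1.65), and ranged from -1.85 to -1.46 with 1 array left out. The dimmer OsETTIN2 probe set in leaf minus root lost it with only the tissues compared (1.64) and with the Gapdh covariate (1.17), and ranged from 1.23 to 2.05 with 1 array left out, as the brighter one did from 1.39 to 1.65. A pseudocount of 1 or 64 gave IAA26 -3.65 or -1.44 in leaf minus root, both called, 1.66 or 0.35 in seedling minus leaf, not called, and -1.09 with 64 in seedling minus root, called. With 1 array left out IAA26 ranged from -3.08 to -1.90 in leaf minus root, IAA31 from -1.90 to -1.53 and the dimmer OsETTIN2 probe set from 0.44 to 1.25 in seedling minus root. The other tested differences of the 4 genes stayed called or uncalled as in the main model under all alternatives run. For the brighter OsETTIN2 probe set this rested at times on the 2-fold minimum alone. That was so in seedling minus leaf with only the tissues compared (-0.68, limma adjusted p = 0.0304), and in seedling minus root without endosperm 1 or endosperm 2 (0.84). The replicate block changed no call of the 4 genes (IAA31 in leaf minus root -1.98, limma adjusted p = 0.00357).

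Embryo minus endosperm moved with the scaling. Quantile normalization gave 3.91 for OsETTIN2 (brighter) and 5.22 for IAA26, and median scaling 5.04 for IAA26. Spike-in scaling, which shifted the median of all tested probe sets by 0.96 in this comparison, gave 4.92 and 5.56 for OsETTIN2, 5.31 for IAA26, 6.47 for IAA31 and turned ARF4 to 0.21 and 0.23. Median scaling shifted all probe sets by 0.28 in embryo minus endosperm, -0.25 in seedling minus leaf and 0.31 in leaf minus root, and the split of called probe sets in leaf minus root then was 4276 higher and 1793 lower, against 3274 and 2661. Spike-in scaling split embryo minus endosperm into 11058 higher and 1180 lower, against 6023 and 4882.

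Aux/IAA calls in seedling minus leaf were 0 with a pseudocount of 1 or no filter, 2 with quantile normalization and 4 with only the tissues compared, where the auxin response factors had 1, and 2 in seedling minus root. With 1 array left out Aux/IAA calls ranged from 0 to 1 in seedling minus leaf, from 3 to 10 in seedling minus root and from 6 to 10 in leaf minus root, and those of auxin response factors from 2 to 6 in seedling minus root and from 1 to 8 in leaf minus root. Calls over the whole array in seedling minus leaf were 812, against 527 with a pseudocount of 1, 383 with spike-in scaling, 3205 with only the tissues compared and 105 to 1263 with 1 array left out. In seedling minus root they were 5694, against 3602 with only the tissues compared and 1824 to 6922 with 1 array left out, and in leaf minus root 5935, against 2652 to 7100. The cause of these changes was not tested. Signals under 100 limit what can be said of IAA26 in leaf, seedling and endosperm.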
